A study of Mus musculus with 8 samples.

Results

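The blood vessels of skeletal muscle were read out here through 10 genes in the immobilized hindlimb muscle of mice given K14Q MOTS-c. The genes were the VEGF ligands Vegfa and Vegfb, the VEGF receptors Flt1 and Kdr, the TIE receptors Tie1 and Tek, and the endothelial junction and surface genes Pecam1, Cdh5, Cldn5 and Emcn. They were taken by name from the 55487 genes of the deposited expression table. All 10 were found, and all 10 were among the 15115 genes that had at least 10 reads in every library. The samples were 8 male C57BL/6J mice, 10 weeks old, whose hindlimbs were both held in casts for 8 days and which received 15 mg/kg/day of K14Q MOTS-c in 2 intraperitoneal injections per day. MOTS-c is a peptide encoded in mitochondrial DNA, and K14Q is a naturally occurring form of it with a glutamine in place of a lysine. Every mouse therefore carried the cast and the peptide. No uncast, untreated or wild-type MOTS-c-treated mice were analysed here, so no value below is an effect of the cast or of the peptide. The sample labels name vastus lateralis, whereas the design description and the study's methods name gastrocnemius, and which of these muscles was taken was not settled here. The libraries held 23985356 to 33012497 reads on genes, of which the 10 most abundant genes took 18.8% to 26.2%. Gene positions are given on GRCm38.p6, and all 10 are protein-coding genes whose exonic reads were counted.

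Endothelial cells line the capillaries that run beside muscle fibres, and VEGF signalling governs their growth and survival. Vegfa is secreted by muscle fibres and other cells and acts through the receptor tyrosine kinase Kdr (VEGFR2), the main signalling receptor on endothelium. Flt1 (VEGFR1) binds Vegfa and Vegfb and exists in a membrane form and a soluble form that traps ligand. Tek (TIE2) is the receptor for the angiopoietins and Tie1 is its partner. Pecam1 (CD31), Cdh5 (VE-cadherin) and Cldn5 (claudin-5) sit at the contacts between endothelial cells, and Emcn (endomucin) is a sialomucin of capillary and venous endothelium. Whole muscle was sequenced, so fewer endothelial cells and less RNA per cell cannot be told apart in any of these values.

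Because several of these genes moved together from mouse to mouse, whereas Cldn5 and the ligands did not, the stretches before their starts are shown first for Flt1 and Kdr, the receptors, for Emcn and Cldn5, an endothelial surface gene whose r with Kdr passed the unadjusted test and another whose r with it did not, and for Vegfa, the ligand. Each is the 250 bases before the start of transcription on the gene's own strand, 5′ to 3′, from RefSeq on GRCm38.p6. Capitals mark GGAA and its reverse complement TTCC, the core of the sites of ETS factors, a family that acts on many endothelial promoters.
Flt1, chr5:147726012-147726261, minus strand: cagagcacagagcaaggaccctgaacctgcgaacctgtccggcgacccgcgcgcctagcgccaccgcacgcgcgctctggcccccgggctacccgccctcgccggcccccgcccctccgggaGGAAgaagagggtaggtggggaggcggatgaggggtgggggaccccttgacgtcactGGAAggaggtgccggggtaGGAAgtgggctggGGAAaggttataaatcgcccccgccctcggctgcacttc
Kdr, chr5:75978456-75978705, minus strand: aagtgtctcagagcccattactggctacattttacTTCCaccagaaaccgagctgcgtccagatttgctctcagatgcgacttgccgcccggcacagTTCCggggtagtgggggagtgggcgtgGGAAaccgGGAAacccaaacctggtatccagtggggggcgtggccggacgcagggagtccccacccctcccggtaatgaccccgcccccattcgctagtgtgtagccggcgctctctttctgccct
Emcn, chr3:137340828-137341077, plus strand: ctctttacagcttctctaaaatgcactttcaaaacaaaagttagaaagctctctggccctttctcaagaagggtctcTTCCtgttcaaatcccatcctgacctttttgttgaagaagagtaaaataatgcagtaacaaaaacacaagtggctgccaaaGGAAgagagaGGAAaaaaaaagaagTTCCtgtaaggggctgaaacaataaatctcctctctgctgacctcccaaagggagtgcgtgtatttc
Cldn5, chr16:18776597-18776846, plus strand: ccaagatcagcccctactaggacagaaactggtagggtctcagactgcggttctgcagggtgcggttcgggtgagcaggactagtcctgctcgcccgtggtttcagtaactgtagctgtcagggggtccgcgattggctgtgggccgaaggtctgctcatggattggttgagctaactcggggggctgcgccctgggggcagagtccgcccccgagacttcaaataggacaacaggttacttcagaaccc
Vegfa, chr17:46032378-46032627, minus strand: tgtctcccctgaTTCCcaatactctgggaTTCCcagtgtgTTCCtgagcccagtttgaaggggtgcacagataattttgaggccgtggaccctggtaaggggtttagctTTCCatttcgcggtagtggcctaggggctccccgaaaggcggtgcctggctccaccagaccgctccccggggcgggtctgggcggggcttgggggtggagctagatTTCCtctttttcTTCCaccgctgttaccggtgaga

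RefSeq entries were matched for 8 of the 10 genes. The core occurred 4 times each in the windows of Flt1, Kdr and Emcn, a number that 33.4% of all 32851 windows of this length reached. Tie1 had 7 cores, which 3.82% of windows reached, and the Vegfa window shown had 6, which 8.69% reached. Tek had 2, Vegfb had 1 and Cldn5 had 0, whereas 93.4% of all windows held at least 1. ACGTG, the core to which hypoxia-inducible factors bind, was counted on both strands and was absent from these 8 windows, although 16.6% of all windows held it. A second RefSeq start of Vegfa lies inside the gene, and its window held 1 such core. The TATAAA box was found in the Flt1 window, as in 12.4% of all windows. These letters are a description of the windows and not evidence that a factor was bound.

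The ligands had the highest levels per length of transcript. Vegfa (ENSMUSG00000023951, chr17:46016993-46032369) ranged from 1966 normalized counts in mouse 4 through a median of 2284 to 3712 in mouse 5, with a mean of 2500 ± 587 (SD, n = 8). A normalized count is the number of reads of a gene divided by the size factor of its library. Mouse 5 stood well above the other mice, the next being mouse 7 at 2838, and the coefficient of variation (CV) was 23.5%, against 2.02% for read counting alone. Vegfb (ENSMUSG00000024962, chr19:6982473-6987651), which acts through Flt1 and is abundant in oxidative tissues, ranged from 757 in mouse 3 through 881 to 1003 in mouse 1, with a mean of 869 ± 94.3 (SD, n = 8). Its CV of 10.9% was the lowest of the 10 genes.

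Among the receptors, Flt1 (ENSMUSG00000029648, chr5:147561604-147726011) was read far more often than Kdr. Flt1 had 1407 normalized counts in mouse 6, a median of 2069 and 2388 in mouse 3, with a mean of 1960.5 ± 326 (SD, n = 8). The lowest of mice 1 to 5 had 2057 and the highest of mice 6 to 8 had 1737, so these sets did not overlap. Kdr (ENSMUSG00000062960, chr5:75932827-75978458) had 283 in mouse 6, a median of 333 and 417 in mouse 2, with a mean of 343 ± 57.4 (SD, n = 8). Its highest values were in mice 2, 5 and 1 and its lowest in mice 6, 7 and 8. Tie1 (ENSMUSG00000033191, chr4:118471191-118490061) spanned 307 in mouse 6, a median of 406 and 479 in mouse 3, with a mean of 394 ± 57.0 (SD, n = 8). Tek (ENSMUSG00000006386, chr4:94739289-94874976) spanned 342 in mouse 7, a median of 464 and 561 in mouse 2, with a mean of 459 ± 86.1 (SD, n = 8). Both TIE receptors were lowest in mice 6, 7 and 8.

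The junction and surface genes differed in which mouse was low. Pecam1 (ENSMUSG00000020717, chr11:106654217-106750628) ran from 1343 in mouse 8 through 1581 to 1904 in mouse 2, with a mean of 1597 ± 204 (SD, n = 8). Cdh5 (ENSMUSG00000031871, chr8:104101625-104144511) ran from 1014 in mouse 8 through 1288 to 1796 in mouse 2, with a mean of 1350 ± 236 (SD, n = 8). Emcn (ENSMUSG00000054690, chr3:137341067-137432185), the least abundant gene, ran from 115 in mouse 8 through 142 to 225 in mouse 2, with a mean of 156 ± 38.4 (SD, n = 8). All 3 were highest in mouse 2 and lowest in mouse 8. Cldn5 (ENSMUSG00000041378, chr16:18776847-18778262), the main claudin of endothelial tight junctions, went the other way in mouse 8, where it reached its highest value of 296. Its lowest value was 158 in mouse 6, its median was 214 and its mean was 217 ± 45.6 (SD, n = 8).

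**Figure D1:**
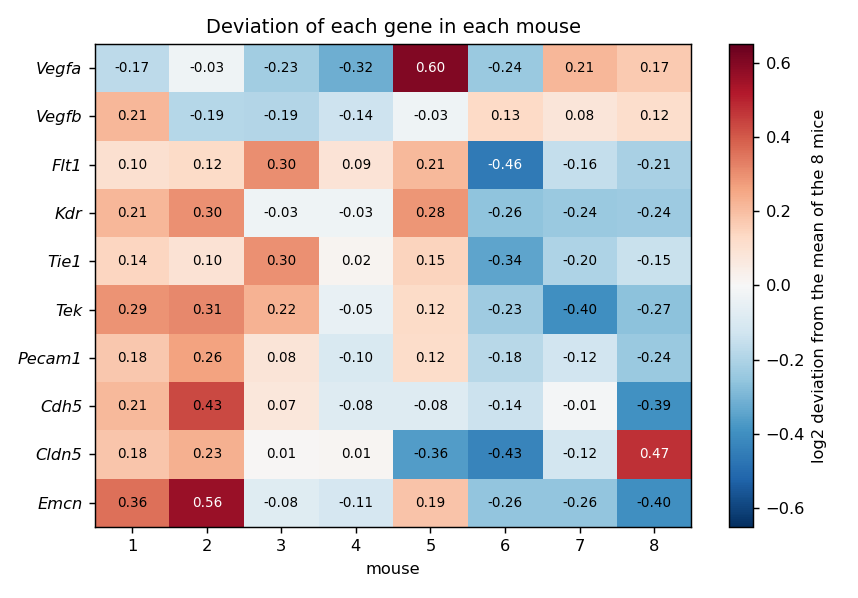
Rows are the 10 genes and columns the 8 mice; each cell gives the log2 deviation of the normalized count from the mean of the log2 values of that gene over the mice (red higher, blue lower). Mice 6, 7 and 8 were below the mean for Flt1, Kdr, Tie1, Tek, Pecam1, Cdh5 and Emcn, Vegfa was 0.60 above its mean in mouse 5, and Cldn5 was 0.47 above its mean in mouse 8.

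As a group, the 10 genes varied between mice slightly more than most genes did. Their CV ranged from 10.9% to 24.6% with a median of 17.1%, beside a median of 15.6% over all tested genes and of 13.0% over the 8347 tested genes whose mean lay between that of Emcn and that of Vegfa. Read counting alone gave a CV of 2.02% to 8.10%, the largest for Emcn. Mouse 2 was highest for 5 of the 10 genes, mouse 6 was lowest for 4 and mouse 8 for 3. Of the 8 genes other than the ligands, mice 1 and 2 were above the median in all 8, mouse 6 in 0, and mice 7 and 8 in 1 each, which was Cdh5 for mouse 7 and Cldn5 for mouse 8.

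Levels between genes were compared per kb of exon, counting each exonic base of a gene once. Vegfa had the highest level at 583 ± 137 normalized counts per kb, followed by Vegfb at 541 ± 58.8 (SD, n = 8 each). These neighbours were in that order in 5 of 8 mice, and their ranges overlapped. Cdh5 followed at 321 ± 56.2 and Pecam1 at 256 ± 32.8 per kb. Cldn5 at 153 ± 32.2 and Flt1 at 145 ± 24.2 were next and did not differ beyond their spread, Cldn5 being the higher in 5 of 8 mice. Tek at 97.5 ± 18.3, Tie1 at 80.2 ± 11.6, Kdr at 38.0 ± 6.36 and Emcn at 28.8 ± 7.10 made up the rest. All neighbours from Vegfb down kept their order in 8 of 8 mice except Cldn5 and Flt1. Flt1 was thus above Kdr per kb of exon in every mouse. Per kb of the longest transcript, Flt1 rose from 145 to 284, because its exons span 13504 bases in all while its longest transcript has 6895. On that scale the mean of Flt1 was above that of Cldn5, and Pecam1 at 464 was above Cdh5 at 338, the reverse of the order per kb of exon.

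**Figure D2:**
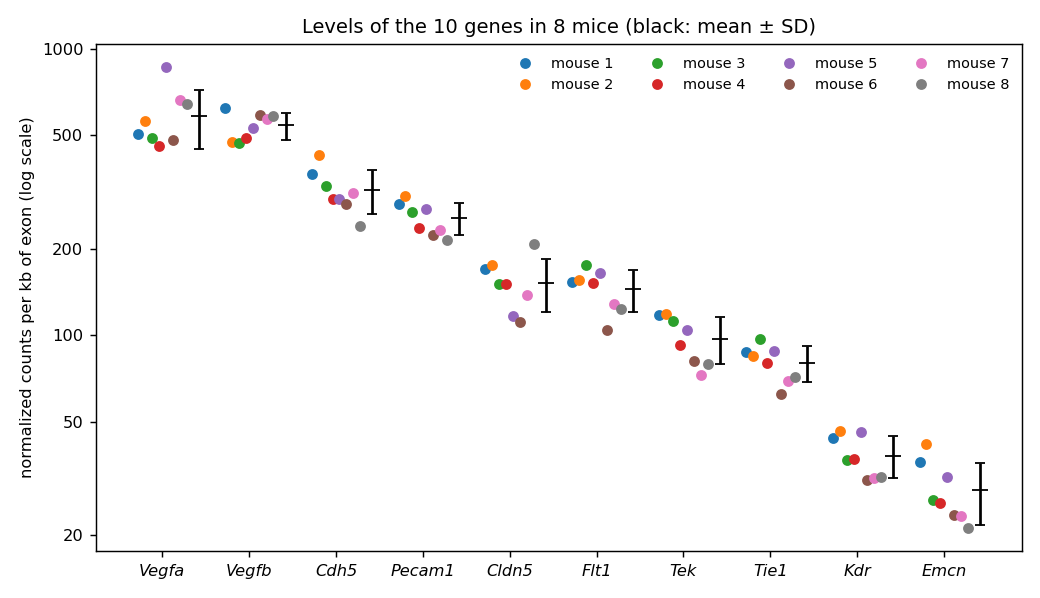
The y axis gives normalized counts per kb of exon on a log scale and the x axis the 10 genes in order of their mean; each coloured point is a mouse and the black bars are the mean ± SD of 8 mice. Vegfa and Vegfb overlap at the top, Cldn5 and Flt1 overlap in the middle, and Emcn is lowest at a mean of 28.8.

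With a single condition, the question left is whether these genes rose and fell together across equally treated mice. Pearson r was computed on log2(normalized count + 1) for each of the 10 genes against every tested gene. Its p came from an exact two-sided permutation test over all orders of the mice, with Benjamini-Hochberg adjustment over all 151140 relations. Of the 45 pairs among the 10 genes, 16 had a positive r at an unadjusted exact p under 0.05 and 0 had a negative one. The same rule called 5.55% of the 151140 relations as positive and 4.36% as negative. No pair passed after adjustment. The smallest exact p that 8 mice allow is 2.48e-05, and the smallest adjusted p among the pairs was 0.250. All 16 pairs lay within the 28 pairs of genes other than the ligands, whose r was positive in 28 of 28 with a median of 0.74. The r of the 45 pairs had a median of 0.21.

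**Figure D3:**
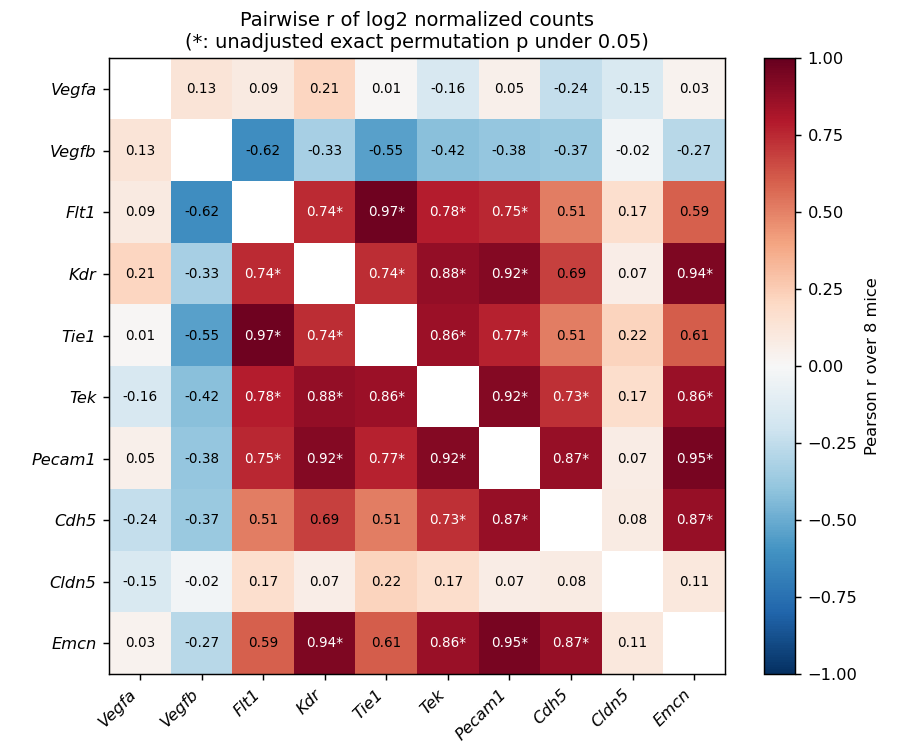
Each cell gives Pearson r of the log2 normalized counts of 2 genes over the 8 mice, and an asterisk marks an unadjusted exact permutation p under 0.05. The 16 marked pairs join Flt1, Kdr, Tie1, Tek, Pecam1, Cdh5 and Emcn, while the rows of Vegfa, Vegfb and Cldn5 hold none.

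The closest pair was Flt1 and Tie1, receptors of the VEGF and the angiopoietin systems. Their r was 0.97 (exact permutation p = 0.000298, adjusted p = 0.303) and Spearman's rho was 0.95 (exact permutation p = 0.00114). Without the 2 mice farthest from the median of Flt1, mice 6 and 8, r was 0.97. Pecam1 and Emcn had an r of 0.95 (exact permutation p = 4.96e-05, adjusted p = 0.250) and a rho of 0.98 (exact permutation p = 0.000397), and r was 0.90 without mice 2 and 8. For Kdr and Emcn, r was 0.94 (exact permutation p = 0.000893, adjusted p = 0.315) and rho was 0.86 (exact permutation p = 0.0107), with an r of 0.95 without mice 2 and 5. These 3 pairs passed the unadjusted test under every alternative scaling and with each mouse left out in turn. Pecam1 had an r of 0.92 with Kdr and of 0.92 with Tek.

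Cdh5, taken as the reference because its expression is restricted to endothelium, was set against the other 9 genes. It passed the unadjusted test with 3 of 9, namely Pecam1 (r = 0.87, exact permutation p = 0.00203), Emcn (r = 0.87, exact permutation p = 0.00342) and Tek (r = 0.73, exact permutation p = 0.0331). Their Spearman rho values were 0.83, 0.76 and 0.74 (exact permutation p = 0.0154, 0.0368 and 0.0458), and without mice 2 and 8, the farthest for Cdh5, r was 0.72, 0.64 and 0.63. The relation with Tek lost the unadjusted threshold without any of mice 1, 2, 3, 4, 6 or 8, its r then lying between 0.65 and 0.74, and with GC and length trends removed (r = 0.66). Over all genes the same rule called 7.42% as positive and 6.46% as negative relations of Cdh5. Its r with Kdr was 0.69 (exact permutation p = 0.0535), and this relation passed with TMM factors (r = 0.70) and without mouse 5 (r = 0.87). With Flt1 and Tie1 the r of Cdh5 was 0.51 for each. Whether Cdh5 was less closely related to the receptors than to Pecam1 was not tested.

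The mice did not spread evenly. For 6 of the 7 genes Flt1, Kdr, Tie1, Tek, Pecam1, Cdh5 and Emcn, all but Cdh5, the 3 lowest values were those of mice 6, 7 and 8, a pattern noticed after the values were seen. Over all tested genes 6.36% had their 3 lowest values in the same mice. Of the 38 endothelial genes described with Cldn5 below, 14 had this pattern, and these 14 include the 6 in which it was noticed. A pooled r across such mice also carries the step between them, and r within mice 1 to 5 or within mice 6 to 8 was not computed, because relations across fewer than 6 mice are not reported here. The labels give no batch. With the trend of each library on GC content and transcript length removed, 5 of these 6 genes kept the pattern. So did 11 of the 14, the same 5 included, and 4.75% of all tested genes then had it.

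Other measures moved with these genes, and their part in the relations was not tested. The slope of each library on GC content, the log2 change per 10 percentage points of GC, ran from -0.0817 in mouse 2, in which 5 of the genes were highest, to 0.0407 in mouse 3. It had an r of -0.81 with Emcn (exact permutation p = 0.0130, adjusted over 80 relations 0.131) and of -0.78 with Cdh5 (exact permutation p = 0.0246, adjusted 0.170). Spearman's rho was -0.48 and -0.62 (exact permutation p = 0.243 and 0.115), and without the 2 mice farthest on the slope r was 0.07 and 0.23. With GC and length trends removed, 13 of the 45 pairs passed in place of 16, and without mouse 2 it was 15. The summed level of the 8 fibroblast markers, which ran from 10294 normalized counts in mouse 8 to 19186 in mouse 2, had an r of 0.93 with Emcn (exact permutation p = 0.000918, adjusted 0.0734). Its rho with Emcn was 0.93 (exact permutation p = 0.00223) and r was 0.74 without the 2 mice farthest in the sum. With Kdr, Tek, Pecam1 and Cdh5 the fibroblast sum had an r between 0.82 and 0.85. The sum was not scaled per gene, and Dcn, with a mean of 9785 normalized counts, made up most of it. The next highest mean of the 8 was 1553. Taken singly, the 8 fibroblast markers had an r with Cdh5 from 0.007 to 0.85. The summed level of the 5 adipocyte markers ran from 215 in mouse 8 to 773 in mouse 3 and had an r of 0.91 with both Tek and Pecam1. With Flt1, Kdr, Tie1, Cdh5 and Emcn its r lay between 0.73 and 0.80. With Cldn5, Vegfa and Vegfb the r of the adipocyte sum was -0.19, -0.13 and -0.47. Among the adipocyte markers Lep had 6 to 51 reads per library and was not tested. The 4 other adipocyte markers and all 8 fibroblast markers had at least 10 reads in every library.

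Cldn5 stood apart from the other endothelial genes. Its r with Flt1, Kdr, Tie1, Tek, Pecam1, Cdh5 and Emcn lay between 0.07 and 0.22, and 0 of the 7 relations passed the unadjusted test. With Cdh5 its r was 0.08 (exact permutation p = 0.855, adjusted p = 0.970) and its rho was 0.26. Mouse 8 decided this value, being the highest for Cldn5 and the lowest for Cdh5, and without it r was 0.83 (exact permutation p = 0.0181). These 8 genes, the pan-endothelial list and the muscle capillary list made up 38 endothelial genes. Of the 38, 7 had their highest value in mouse 8, beside 18.0% of all tested genes, and 11 their lowest, beside 20.7%. This split was seen after the values were known. The 7 were Cldn5, the adhesion gene Esam, Egfl7, Robo4, Rasip1, the lipoprotein lipase anchor Gpihbp1 and the capillary carbonic anhydrase Car4. The 11 were Pecam1, Cdh5, Emcn, Mmrn2, Adgrl4, Adgrf5, Eng, Cd34, Clec14a, Podxl and Cd36. Mouse 6 was the lowest for 21 of the 38 and for 7.54% of all tested genes, and mouse 2 was the highest for 16 of the 38 and for 13.1% of all tested genes. The part of the 38 that was highest in mouse 8 was near the 18.0% of all tested genes. The median GC content of the transcripts was 54.9% for the 7 and 47.1% for the 11, and the median length was 1865 and 3974 bases. With the GC and length trends removed, the same 7 were still highest and 8 of the 11 still lowest in mouse 8. The part of GC content and length in this split was not tested.

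The rest of the VEGF and TIE systems was described by lists of genes. Of the 6 other VEGF ligands and receptors, 3 passed the unadjusted test with Cdh5 in the positive direction and 0 in the negative, with a median r of 0.68, beside 7.42% of all tested genes. These were the co-receptors Nrp1 (r = 0.81) and Nrp2 (r = 0.80) and the placental growth factor gene Pgf (r = 0.77), their exact permutation p being 0.0150, 0.0134 and 0.0246. All 3 lost the threshold with Spearman's rho, which lay between 0.64 and 0.71. They also lost it without mouse 2, and without mouse 8, with r between 0.61 and 0.74. The lymphatic ligand Vegfd, with a mean of 847 normalized counts, had an r of -0.53 with Cdh5 (exact permutation p = 0.175), and Flt4, the receptor of lymphatic endothelium, one of 0.60 (exact permutation p = 0.116). Of the 3 tested genes of the angiopoietin list, Angpt2, which endothelial cells release and which can oppose Tek signalling (r = 0.81, exact permutation p = 0.0142), and Ptprb, the phosphatase VE-PTP that acts on Tek and Cdh5 (r = 0.83, exact permutation p = 0.0111), passed. Angpt2 lost the threshold with Spearman's rho and without mouse 2 (r = 0.65), and Ptprb without mouse 8 (r = 0.68). Angpt1, the activating ligand of Tek, had an r of 0.56 (exact permutation p = 0.151), and Angpt4 had 1 to 4 reads per library and was not tested. Sh2d2a, an adaptor that binds Kdr, had at most 2 reads. The 15 tested genes of VEGF receptor signalling had a median r of 0.16 with Cdh5, and Ptk2, the focal adhesion kinase gene, passed in the positive direction (r = 0.78, exact permutation p = 0.0281), but not without mouse 2 (r = 0.52).

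Endothelial genes beyond the 10 were counted by vessel type, beside the 7.42% of all tested genes that were positively related to Cdh5. In the pan-endothelial list 10 of 20 passed in the positive direction and 0 in the negative, with a median r of 0.70, against a median of -0.02 over all tested genes. The closest were Mmrn2, an extracellular matrix protein of endothelium (r = 0.95, exact permutation p = 0.000273), Clec14a (r = 0.87, exact permutation p = 0.00313), and Eng, a co-receptor of the TGF-beta family (r = 0.86, exact permutation p = 0.00665), the last of which lost the threshold without mouse 8 (r = 0.73). Not all of this list followed Cdh5. Its lowest r was -0.50, and Egfl7, Esam, Rasip1 and Robo4 had an r between -0.40 and -0.13. Of 7 venous genes 3 passed, Vwf, the von Willebrand factor gene, the apelin receptor gene Aplnr (r = 0.80) and the adhesion gene Vcam1 (r = 0.84). Without mouse 2 Aplnr (r = 0.59) and Vcam1 (r = 0.69) did not pass, and Vcam1 also did not without mouse 8 or with Spearman's rho. Vwf ran from 266 normalized counts in mouse 8 to 695 in mouse 2, with an r of 0.96 (exact permutation p = 0.000198, adjusted p = 0.303), a rho of 0.93 (exact permutation p = 0.00223) and an r of 0.93 without mice 2 and 8. Of 7 arterial genes 1 passed, Efnb2 (r = 0.83, exact permutation p = 0.00677), and of 10 muscle capillary genes 1 passed, Fabp4 (r = 0.72, exact permutation p = 0.0419), which adipocytes also express. The Fabp4 relation lost the threshold with trends removed and without any of mice 1 to 7, its r being 0.47 without mouse 2. In the same capillary list Gpihbp1 had an r of -0.33 with Cdh5 and Car4 one of -0.05. Of 4 lymphatic genes 0 passed. Among other junction genes 2 of 6 passed, Tjp1 (r = 0.88) and Jam2 (r = 0.82, and 0.68 without mouse 8, where it did not pass), while the tight junction genes Ocln and Cgn had at most 6 reads in any library. The differences between vessel types were not tested.

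Some markers of cells around the endothelium were also related to Cdh5, a direction that 7.42% of all tested genes passed. Of 10 mural cell genes 3 passed, the pericyte gene Rgs5 (r = 0.83), the smooth muscle myosin Myh11 (r = 0.80) and Notch3 (r = 0.76), and all 3 lost the threshold without mouse 8. Of 8 fibroblast markers 3 passed, Dpt (r = 0.85), Pdgfra (r = 0.79) and Dcn (r = 0.76), and of 4 adipocyte markers Plin1 (r = 0.84) and Adipoq (r = 0.82). The 3 fibroblast markers lost the threshold with Spearman's rho and without mouse 2, with r from 0.58 to 0.68 without it, and both adipocyte markers lost it without mouse 8, with r of 0.72 and 0.71. Of 8 macrophage, 5 blood, 5 Schwann cell, 3 satellite cell and 8 skeletal muscle markers 0 passed in either direction. Calcr, a marker of satellite cells, had 1 to 8 reads per library. Of 7 angiogenesis inhibitors 2 passed, Col18a1, the source of endostatin (r = 0.93), and Timp3, which blocks Vegfa binding to Kdr (r = 0.91).

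Some genes of mitochondrial respiration had a negative r with Cdh5. Of 12 nuclear genes of this list, 6 had a negative r at an unadjusted exact p under 0.05 and 0 a positive one, with a median r of -0.71, beside 6.46% of all tested genes that were negative. The 4 with the smallest p were Atp5b (r = -0.79), Cox5a (r = -0.83), Uqcrc2 (r = -0.79) and Ndufa9 (r = -0.79), subunits of ATP synthase and of complexes of the respiratory chain. All 6 genes were lowest in mouse 2 and highest in mouse 8, and without mice 2 and 8 the r of these 4 lay between -0.33 and 0.20. Without mouse 2 alone it lay between -0.71 and -0.51, and none of the 4 passed. The direction of these 4 stayed negative with library totals in place of the deposited size factors, but their r was then between -0.57 and -0.23 and none passed.

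**Figure D4:**
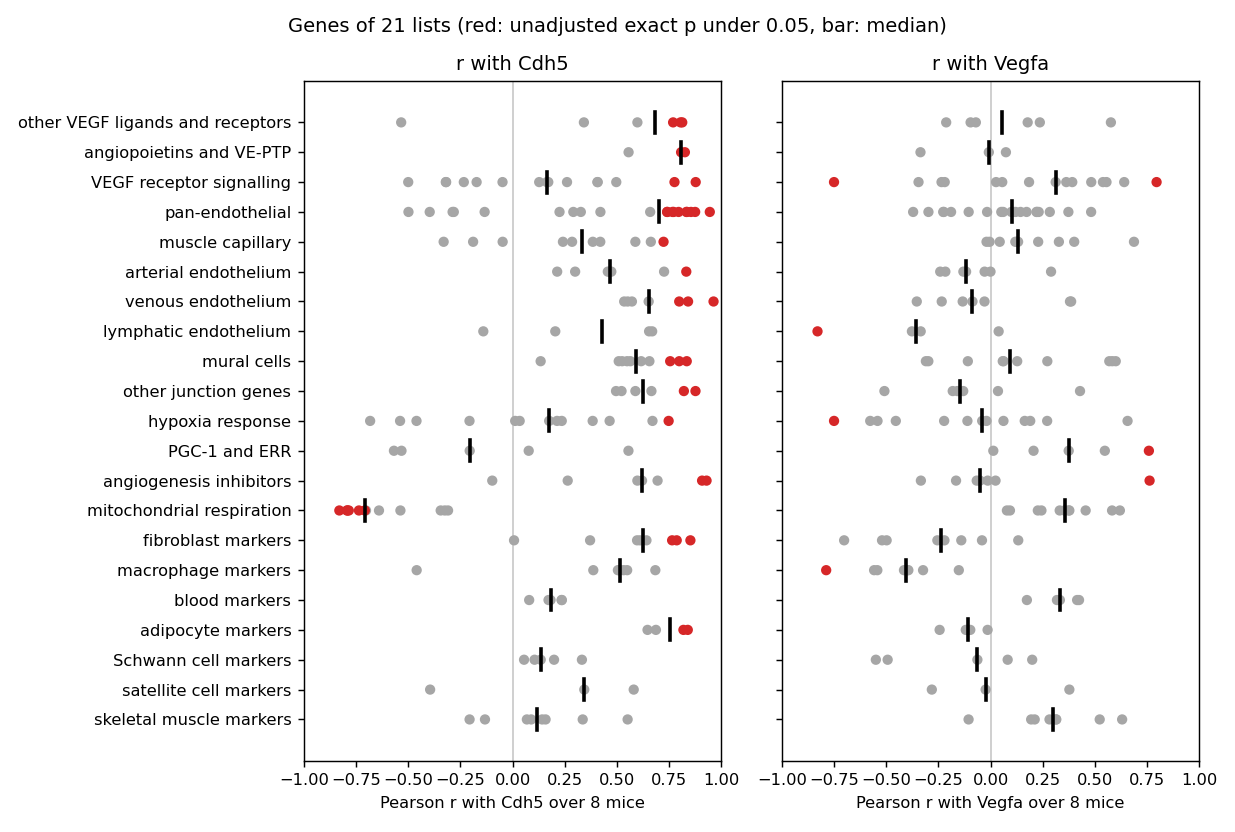
Each point is a gene of 1 of 21 lists, the x axis gives its Pearson r with Cdh5 (left) or Vegfa (right) over 8 mice, red marks an unadjusted exact permutation p under 0.05, and the black bar is the median of the list. The pan-endothelial median was 0.70 with Cdh5 and 0.10 with Vegfa, and the mitochondrial respiration median was -0.71 with Cdh5 and 0.36 with Vegfa.

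Vegfa did not follow its receptors. Its r with the 8 genes other than the ligands ran from -0.24 with Cdh5 to 0.21 with Kdr, and 0 of 9 relations with the other genes passed the unadjusted test, under the deposited values and under every alternative. With Kdr, r was 0.21 (exact permutation p = 0.624) and rho was 0.21 (exact permutation p = 0.619), and without mouse 5 r was -0.29. With Flt1, r was 0.09 (exact permutation p = 0.823) and -0.29 without mouse 5. Over all tested genes 4.01% had a positive and 3.68% a negative relation to Vegfa by the same rule. A p above the threshold with 8 mice does not show that ligand and receptors were unrelated.

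Among the lists, Vegfa was related to few genes, beside 4.01% of all tested genes that were positive and 3.68% that were negative. Of the 5 genes of the PGC-1 and ERR list, Ppargc1a, the coactivator PGC-1alpha that drives Vegfa in muscle, passed. Its level ran from 1092 normalized counts in mouse 6 through 1508 to 2903 in mouse 5. Its r with Vegfa was 0.76 (exact permutation p = 0.0337, adjusted p = 0.465) and its rho was 0.50 (exact permutation p = 0.216). The relation rested on mouse 5, the highest for both genes, since r was 0.29 without it and -0.07 without mice 5 and 7. Of 13 hypoxia response genes 0 passed in the positive direction, and Arnt, the partner of hypoxia-inducible factors, passed in the negative (r = -0.75, exact permutation p = 0.0317). Of 15 VEGF receptor signalling genes Pxn (r = 0.80, exact permutation p = 0.0153) and Plcg1, the phospholipase recruited by Kdr (r = -0.75, exact permutation p = 0.0302), passed in opposite directions. Adamts1 of 7 angiogenesis inhibitors (r = 0.76), Pdpn of 4 lymphatic genes (r = -0.83) and C1qa of 8 macrophage markers (r = -0.79) also passed. With library totals Pdpn, C1qa, Pxn, Arnt and Plcg1 all lost the threshold, with r of -0.66, -0.58, 0.28, -0.46 and -0.46, and without mouse 5 the r of Adamts1 was 0.50 and that of Pxn 0.68, neither passing. Arnt and Plcg1 also lost it without mouse 1, 3 or 4, and C1qa without mouse 4 (r = -0.74). In the pan-endothelial list 0 of 20 passed.

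The genes most like Vegfa across the 8 mice, searched among the 9725 protein-coding genes averaging 100 normalized counts or more, were Fbxo8 (r = 0.99), Optn (r = 0.97), Asb8 (r = 0.95), Nceh1 (r = 0.95) and Olfr482 (r = 0.95). Vegfb was most like Mybph (r = 0.98), Ldhb (r = 0.96) and Cyhr1 (r = 0.95). Mybph, a myosin-binding protein of muscle fibres, ran from 189 to 868 normalized counts, a far wider range than that of Vegfb. The r of Vegfb with the 8 genes other than the ligands was negative in 8 of 8, from -0.62 with Flt1 to -0.02 with Cldn5, and 0 passed. With Flt1 the exact permutation p was 0.101 and rho was -0.67 (exact permutation p = 0.0831), and without mouse 1, in which Vegfb was highest, r was -0.86 (exact permutation p = 0.0204). Cdh5 was most like Pea15a (r = 0.97), Cavin2 (r = 0.97), Vwf (r = 0.96), Ankrd26 (r = 0.96) and Gbp2 (r = 0.96). Of these, Cavin2, a caveolar coat protein, and Vwf are abundant in endothelium.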

How the data were processed

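RNA of 8 mice was captured as poly-adenylated RNA and sequenced. Per the labels and the study's methods, the authors checked and trimmed reads with FastQC and fastp, aligned them with STAR to GRCm38.p6, counted them over genes using summarizeOverlaps and scaled the counts by DESeq2. The annotation release, the strand setting and the treatment of multi-mapping reads are not given in the sources used here, so reads of overlapping, antisense or near-identical genes could not be told apart. The deposited values are a normalized signal, gene counts divided by a size factor of each library, as 100% of the nonzero values were whole multiples of the value of 1 read, within 0.01 of a read. The 23985356 to 33012497 recovered reads per library served for the filter, the counting error and other scalings.

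Gene identifiers were joined to symbols, exon lengths and GC content through the GENCODE annotation of GRCm38.p6, which held 55227 of the 55487 identifiers. Ccl21a was left out because 2 identifiers share its symbol. Genes with at least 10 reads in every library were tested, on log2(normalized count + 1). The test was the exact two-sided permutation test of Pearson r over mice, with Benjamini-Hochberg adjustment over all relations. It was checked on simulated counts. The 10 genes, the lists and the tests were chosen with earlier results of these data known. The genes named were the 10, for Cdh5 and Vegfa the 5 and for each other the 3 protein-coding genes of highest r with a mean of at least 100, and for each list up to 4 genes by smallest p among those that passed with Cdh5 or Vegfa, with defining markers near 0; Vegfd, Flt4, Angpt1 and the genes at an extreme in mouse 8 were named after their values were seen. The symbol Abcc9 in the mural list and Fabp4, Cd36 and Aqp7 in the capillary list are not restricted to those cells. No 2 libraries held the same counts (chi-square per degree of freedom 16.1 to 119 over the 28 pairs), and the 8 were taken as separate mice from the labels. Alternatives were edgeR 4.0.16 TMM factors, library totals, DESeq2 1.42.0 size factors from these 8 libraries, removal of GC and length trends, Spearman's rho, a pseudocount of 5, a mean of at least 1 count as filter, the longest transcript, the median, and leaving out each mouse. Scripts ran in Python 3.11.15 with numpy 2.4.6 and pandas 2.3.3, and in R 4.3.3. The relation of 1 gene of a list to Cdh5 is not reported here.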

Additional observations from a re-analysis of the deposited data

Results flagged for a closer look

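Of 83 measures named in the text or describing the libraries, 4 had 1 mouse farther from the rest than Dixon's 95% critical value for 8 samples allows, and chance alone flags about 1 in 20 groups. The 10 genes of the VEGF and endothelial set were not among them. Ppargc1a was highest in mouse 5 at 2903 normalized counts, with the next mouse at 1722, a ratio of gap to range of 0.652. Mouse 5 was also the highest for Vegfa, and the relation of Vegfa to Ppargc1a rested on it. Ndufa9 was highest in mouse 8 at 3381, with the next at 2684 (ratio 0.584), and Cox5a was highest in mouse 8 at 5287, with the next at 3933 (ratio 0.565). Atp5b was lowest in mouse 2 at 25948, with the next at 31109 (ratio 0.545). Mice 2 and 8 were the highest and the lowest for Cdh5, Pecam1 and Emcn.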

How the results depend on the processing

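No paired analysis was possible because every mouse belonged to the same group. The count of related pairs, 16 of 45, stayed within 1.5 times under every alternative: 17 with TMM factors, 13 with GC and length trends removed, 11 with Spearman's rho, and 11 to 15 with 1 mouse left out, 11 being reached without mouse 1 and without mouse 6. The only alternative with negative pairs was the one without mouse 1, with 4. Cdh5 was related to 2 to 4 genes and Vegfa to 0 under every alternative. Removing trends lowered the share of all genes positively related to Cdh5 to 5.17%, and library totals changed it to 8.65% positive and 1.05% negative. With the lower filter 22822 genes were tested against Cdh5 and 6.10% were positive. The order per kb kept 7 of 9 neighbours with the longest transcript and with the median, and 8 or 9 with 1 mouse left out. Weak relations changed sign. For Cldn5 and Cdh5 r was -0.00277 without mouse 1, -0.20 without mouse 2, -0.0615 without mouse 6 and 0.83 without mouse 8, and for Cldn5 and Tie1 it ran from -0.25 without mouse 6 to 0.53 without mouse 8. For Vegfa and Flt1 it was -0.29 without mouse 5, -0.22 without mouse 6 and at most 0.28 (without mouse 3), and for Vegfa and Kdr it ran from -0.29 without mouse 5 to 0.37 without mouse 7. For Vegfa and Vegfb it was -0.22 with library totals, -0.0155 without mouse 3, -0.0135 without mouse 4 and at most 0.31 (without mouse 1). Of 59 named relations, 20 lost the threshold without mouse 8, 17 without mouse 2, 16 with Spearman's rho, 10 with library totals and 9 with trends removed. The cause was not tested. With 8 mice and 151140 relations, the smallest adjusted p reached was 0.234, so only unadjusted counts could be read. Each p-value is the share of orders of these mice that gave an r at least as large in size. The spread between the mice is given by the SD and the CV.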

Other observations

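Among the genes most like the remaining 7 across the 8 mice, those of Flt1 and Tie1 were partly the same, and those of Kdr and Tek were others. Flt1 was most like Efnb1 (r = 0.98), Tie1 (r = 0.97) and Gfod1 (r = 0.96), and Tie1 was most like Flt1, Gfod1 (r = 0.95) and Rgs3 (r = 0.95). Kdr was most like Arfip1 (r = 0.99), Nfat5, a transcription factor of the osmotic response (r = 0.98), and Gucy1b1, a subunit of the nitric oxide receptor of mural cells (r = 0.97). Tek was most like Fnbp1l (r = 0.99), Ebf2 (r = 0.98) and Cd38 (r = 0.97). Pecam1 was most like Cxcl12, a chemokine of stromal and endothelial cells (r = 0.99), Cald1 (r = 0.98) and Ppl (r = 0.97). Emcn was most like Gng2 (r = 0.98), the collagen receptor Ddr2 (r = 0.98) and the laminin chain Lamb1 (r = 0.97), the last 2 being expressed in fibroblasts as well. Cldn5 was most like Ddx5 (r = 0.96), Ube2g1 (r = 0.95) and Chac1 (r = 0.94), of which none is an endothelial marker. Each was chosen as the highest of 9725 genes over 8 mice, and none passed after adjustment.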
